A study of Homo sapiens with 5 samples.

Results

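The 40 genes described here make, move, fold and discard the proteins of the endoplasmic reticulum (ER), or sense and answer the load of unfolded protein there. They were chosen by name as the ER folding, translocation and degradation machinery with the sensors and factors of the unfolded protein response. The choice was made with earlier results of these data known, so the shares below are descriptions and not tests. All 40 were found among the 11976 genes of the authors' deposited table. They were sorted by role into chaperones and their cofactors (11 genes), oxidative folding (6), lectin chaperones (2), sensors and factors (6), ER degradation (9) and translocation (6).

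The libraries were made from total RNA of HUDEP-2 cells, an immortalised erythroid progenitor line from umbilical cord blood. The 3 libraries of one group carry the genotype label ERF knockout, ERF being a repressor of the ETS family of transcription factors. The 2 libraries of the other group are labelled wild type, and their titles carry the letters SCR. No other allele, agent, time or culture stage is given for either group. The authors' deposited table carries the letters Pre in its name, and what they stand for is not given. Nor is it given how the knockout was made, whether it is 1 clone, or whether replicate libraries are separate cultures. The p-values may thus measure technical spread alone.

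Only the comparison of the groups was used, because the authors' deposited table holds 0 columns of values per sample. Depth, the value in each library and overlap between libraries are therefore unknown, and every fold change, mean level and adjusted p below comes from that table. A gene is called when the adjusted p (edgeR's quasi-likelihood test as the authors ran it, Benjamini-Hochberg) is below 0.05. Mean level is log2 CPM, the log2 of reads scaled to a common library total, averaged over the 5 libraries. It is not corrected for gene length, so levels of different genes are not ranked. The standard error (SE) and the 95% interval were computed here from each gene's fold change and F, and are approximate.

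The header of the authors' deposited table does not name the reference group. Signs were set so that the γ-globin gene HBG2 is positive, at a log2 fold change of 1.88 (SE 0.22, adjusted p = 7.64e-05). "Higher" and "lower" below thus mean higher or lower in the group with higher HBG2. The globin genes HBA2, HBA1 and HBB were called higher in that group too (log2 1.06, 0.75 and 0.43), so the rise was not confined to HBG2. The series title links loss of ERF activity to reactivated γ-globin, which would make the group with higher HBG2 the knockout group. ERF RNA itself was also higher on that side, 1.85-fold (log2 0.89, 95% interval 0.73 to 1.04, adjusted p = 6.44e-06). This goes against that reading only if the knockout lowered ERF RNA, and how the knockout was made is not given. The group names are therefore an assumption that was not tested, and if it is wrong they are exchanged while every statement on which genes moved together or apart stays as written. The erythroid identity of the cells was checked with 10 markers, all of which were in the table at 6.90 to 12.48 log2 CPM. Of these markers 7 were higher (70%, against 24.9% of all genes), 0 lower and 3 not called. The largest values were those of SLC4A1 (log2 1.77), HBA2 (1.06) and TFRC (1.01), so the groups also differed in erythroid marker RNA. Of 25 markers of plasma cells, mast cells, megakaryocytes, granulocytes or monocytes and stem cells, 4 were in the table: the mast cell tryptases TPSAB1 (log2 0.61) and TPSB2 (0.54), both higher and nearly identical in sequence, and ITGA2B and LYZ, neither of which was called. In bulk RNA, fewer cells of a type and less RNA per cell cannot be told apart.

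Proteins that enter the ER pass through the Sec61 channel, are folded by the chaperones of the HSP70 and HSP90 families, gain disulfide bonds from protein disulfide isomerases, and, when they carry sugars, cycle on the lectins calnexin and calreticulin. Chains that fail are drawn back to the cytosol and degraded. Load on this system is read by 3 sensors in the ER membrane. IRE1 splices the mRNA of XBP1. ATF6 is cut by the site-1 and site-2 proteases to release a transcription factor. PERK slows translation and raises ATF4. Spliced XBP1 and cleaved ATF6 act on promoters through the ER stress element, which reads CCAAT, then 9 bases, then CCACG, or through ER stress element II, which reads ATTGG, then 1 base, then CCACG. Developing red cells make large amounts of membrane and surface proteins by this route, while hemoglobin is made in the cytosol.

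The promoter windows of the members were searched for both elements because they are the sites through which this response is known to work. The windows run from 250 bases before to 50 bases after each annotated start, and come from RefSeq on GRCh38.p14. Of the 40 genes, 38 were matched, and PDIA3 and DERL1 were not. The following stretches show elements from members of every kind of response, each read 5′ to 3′ on the strand that carries the element, with its fixed letters in capitals and up to 10 bases on either side.

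HSPA5, chr9:125241381-125241419, minus strand: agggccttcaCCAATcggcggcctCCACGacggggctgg
HSP90B1, chr12:103930206-103930244, plus strand: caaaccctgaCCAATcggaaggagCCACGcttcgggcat
HSP90B1, chr12:103930311-103930349, minus strand: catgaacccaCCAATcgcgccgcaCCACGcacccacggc
CALR, chr19:12938374-12938412, minus strand: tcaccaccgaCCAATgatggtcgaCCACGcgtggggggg
PDIA6, chr2:10812843-10812881, minus strand: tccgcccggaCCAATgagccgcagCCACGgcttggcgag
CANX, chr5:179698768-179698806, plus strand: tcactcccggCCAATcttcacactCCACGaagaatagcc
XBP1, chr22:28800593-28800631, minus strand: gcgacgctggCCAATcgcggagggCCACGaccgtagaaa
ERO1LB, chr1:236282173-236282208, plus strand: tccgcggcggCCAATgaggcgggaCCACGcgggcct
SDF2L1, chr22:21642104-21642134, minus strand: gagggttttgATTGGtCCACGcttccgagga
HYOU1, chr11:119057370-119057400, plus strand: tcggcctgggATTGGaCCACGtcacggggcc
HYOU1, chr11:119057264-119057294, plus strand: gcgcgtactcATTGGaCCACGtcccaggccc
HERPUD1, chr16:56932015-56932045, plus strand: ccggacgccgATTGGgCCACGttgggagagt

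Over the whole comparison, 18 of the 40 ER genes were higher, 11 were lower and 11 were not called. The called genes made up 72.5% of the ER genes, where 50.9% of all 11976 genes were called. The share called higher was 45% against 24.9% of all genes, and the share called lower was 27.5% against 25.9%. The median log2 fold change of the ER genes was 0.09, beside 0.00 for all genes (-0.0019), and their range ran from -1.41 for HSPA13 to 1.87 for HSPA5. A change of at least 2-fold was called for 6 ER genes (15%), against 3.27% of all genes. HSPA5, SDF2L1, MANF and HSP90B1 were the 4 of these that were higher, and HSPA13 and HERPUD1 the 2 that were lower. The other 23 called genes changed by less than 2-fold. The ER genes had a higher mean level than the table as a whole, with a median of 6.15 log2 CPM against 4.64. Among the 5214 genes of at least 5 log2 CPM, adjusted over those genes alone, 15 of 31 ER genes were higher (48.4% against 32.4%) and 8 were lower (25.8% against 24.9%).

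The counts differed between roles. Of all genes, 24.9% were higher and 25.9% lower. Of the 19 folding genes (chaperones, oxidative folding and lectins) 12 were higher (63.2%), 3 lower (15.8%) and 4 not called, with a median of 0.53. Of the 21 genes that sense, translocate or degrade, 6 were higher (28.6%), 8 lower (38.1%) and 7 not called, with a median of -0.02. No test of the difference between these groups was made. In the plot of all 40 genes with their intervals, the chaperones reach farthest on both sides, and the sensors lie left of 0 with 1 exception.

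**Figure D1:**
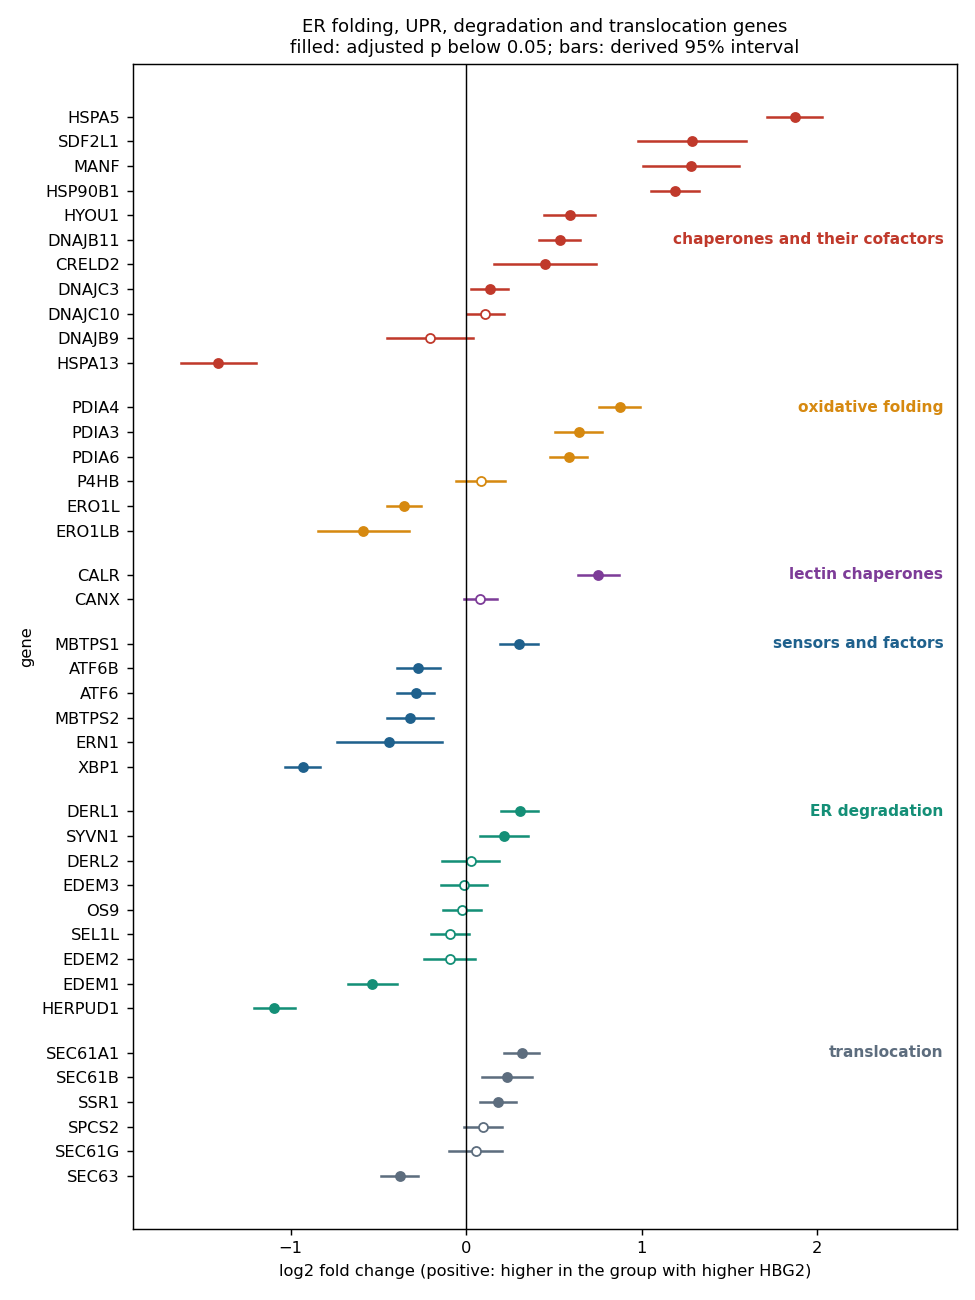
Log2 fold change of each of the 40 ER genes (x axis, positive where the group with higher HBG2 is higher), sorted by role; bars are derived 95% intervals, filled points are called (adjusted p below 0.05) and open points are not. HSPA5 stands farthest right at 1.87 and HSPA13 farthest left at -1.41, and 5 of the 6 sensors and factors are negative.

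Chaperones of the ER lumen were the most raised group, with 8 of 11 genes higher (72.7%, against 24.9% of all genes). Of the rest 1 was lower (9.09%, against 25.9%) and 2 were not called, and the median of the group was 0.53. HSPA5 encodes BiP, the HSP70 of the ER, which binds unfolded chains and holds the sensors inactive. Its log2 fold change was 1.87 (SE 0.07, 95% interval 1.72 to 2.03), a 3.66-fold difference, at 8.67 log2 CPM and with an adjusted p of 4.10e-08 in the authors' deposited table. It was the 20th highest fold change of all 11976 genes. HSP90B1 encodes GRP94, the HSP90 of the ER, which takes over clients from BiP. It was 2.28-fold higher (log2 1.19, SE 0.06, 95% interval 1.05 to 1.32) at 8.74 log2 CPM (adjusted p = 3.34e-07), the 71st highest fold change. The major HSP70 and HSP90 of the ER were thus both more than 2-fold higher.

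SDF2L1 and MANF, a pair of BiP partners, were also more than 2-fold higher. SDF2L1, which works with ER DnaJ proteins, was 2.44-fold higher (log2 1.29, SE 0.14, 95% interval 0.98 to 1.60, adjusted p = 4.58e-05) at 3.18 log2 CPM. MANF, a small protein that stabilises BiP bound to its clients and can be secreted, was 2.43-fold higher (log2 1.28, SE 0.12, 95% interval 1.01 to 1.55, adjusted p = 2.29e-05) at 4.02 log2 CPM. Their intervals overlap each other and that of HSP90B1, and lie below the lower end of the HSPA5 interval.

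The remaining higher chaperone genes changed less. HYOU1, a large HSP70 that exchanges nucleotide on BiP, was 1.51-fold higher (log2 0.59, SE 0.07, adjusted p = 5.31e-05). DNAJB11, a DnaJ protein that brings clients to BiP, differed by log2 0.53 (SE 0.05, adjusted p = 2.64e-05), although 23.2% of its exon bases are shared with other genes in GENCODE 29. CRELD2, an ER stress-induced protein, differed by log2 0.45 (SE 0.13, adjusted p = 0.0149) at a low mean level of 1.72 log2 CPM. DNAJC3, known as P58IPK, was 0.13 higher (SE 0.05, adjusted p = 0.0363), and this call was lost when fold changes were centred on the median of well expressed genes. DNAJC10, a DnaJ protein with disulfide reductase activity, had a value of 0.11 (adjusted p = 0.0731), and DNAJB9, or ERdj4, which represses IRE1 through BiP, one of -0.21 (SE 0.11, adjusted p = 0.141). The intervals of all 4 DnaJ genes lie below that of HSPA5, and DNAJB9 lay on the other side of 0 without being called.

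HSPA13 was the exception among the chaperones. It encodes STCH, a truncated relative of HSP70 associated with microsomes that lacks the peptide-binding part. It was 2.66-fold lower (log2 -1.41, SE 0.10, 95% interval -1.62 to -1.20, adjusted p = 2.19e-06) at 6.51 log2 CPM, the 98th lowest fold change of all genes. The HSP70 relatives HSPA5 and HSPA13 therefore stood at opposite ends of the ER genes.

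**Figure D2:**
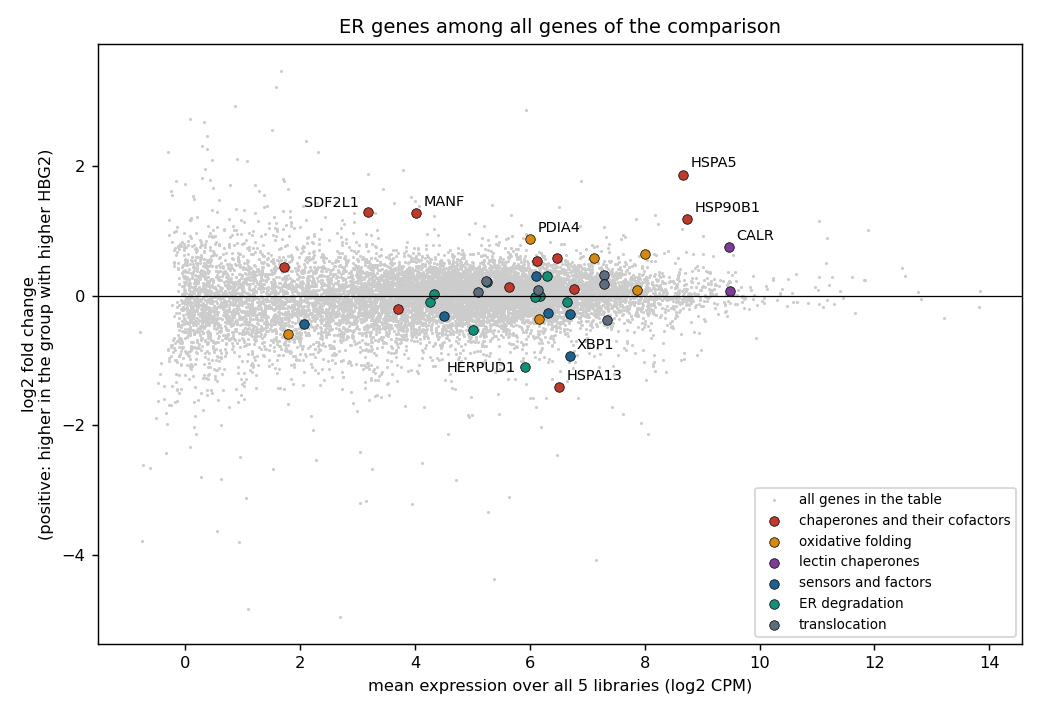
Log2 fold change (y axis) against mean log2 CPM over the 5 libraries (x axis) for all 11976 genes (grey) and the 40 ER genes (coloured by role). HSPA5 and HSP90B1 stand at 1.87 and 1.19 at the high mean levels of 8.67 and 8.74 log2 CPM, and HSPA13, HERPUD1 and XBP1 stand at -1.41, -1.09 and -0.93 between 5.92 and 6.70 log2 CPM.

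Genes for disulfide formation were called in both directions. Of the 4 protein disulfide isomerases, 3 were higher. PDIA4, or ERp72, was 1.83-fold higher (log2 0.88, SE 0.05, adjusted p = 9.17e-07). PDIA3, or ERp57, which works with the lectins on glycoproteins, differed by log2 0.64 (SE 0.06, adjusted p = 2.00e-05), and PDIA6, or P5, by 0.58 (SE 0.05, adjusted p = 7.60e-06). P4HB, the classical protein disulfide isomerase, had a value of 0.08 (95% interval -0.05 to 0.22, adjusted p = 0.286) at 7.87 log2 CPM and was not called. In contrast, both ER oxidoreductins, which pass electrons from the isomerases to oxygen, were lower. ERO1L, now named ERO1A, differed by -0.36 (SE 0.04, adjusted p = 9.62e-05). ERO1LB, now ERO1B, differed by -0.58 (SE 0.12, adjusted p = 0.00205) at 1.80 log2 CPM. The called isomerases and both ER oxidoreductins thus moved in opposite directions. This does not extend to PRDX4, a peroxiredoxin that oxidises disulfide isomerases, which was called higher (log2 0.74). PDIA3 and PDIA6 share 18.9% and 25.2% of their exon bases with other genes in GENCODE 29 (GRCh38), ATP6V1C2 in the case of PDIA6. Whether strand was used in counting is not stated in the sources used here.

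The lectin pair also separated. Calreticulin (CALR), the soluble lectin of the lumen, was 1.69-fold higher (log2 0.75, SE 0.05, 95% interval 0.64 to 0.87, adjusted p = 2.64e-06). Calnexin (CANX), its membrane-bound relative, had a value of 0.08 (SE 0.04, 95% interval -0.01 to 0.18, adjusted p = 0.135). The mean levels were 9.47 and 9.48 log2 CPM, and the intervals of the fold changes do not overlap.

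Sensors and transcription factors of the response were mostly lower, with 1 of 6 higher (16.7%) and 5 lower (83.3%), and a median of -0.30. Of all genes, 24.9% were higher and 25.9% lower. XBP1, the factor whose mRNA IRE1 splices, was 1.91-fold lower (log2 -0.93, SE 0.04, 95% interval -1.03 to -0.83, adjusted p = 2.04e-07). The table counts the gene as a whole, so spliced and unspliced XBP1 cannot be told apart. ERN1, the gene of IRE1, differed by -0.44 (SE 0.14, adjusted p = 0.0202) at 2.07 log2 CPM, a call lost at an adjusted p below 0.01. ATF6 differed by -0.29 (SE 0.05, adjusted p = 0.000616) and its paralog ATF6B by -0.27 (SE 0.05, adjusted p = 0.00213). Thus all 4 genes for the IRE1 and ATF6 branches' own proteins were lower, XBP1 by the most. The proteases that cut ATF6 went in opposite directions. MBTPS1, the site-1 protease, was higher by 0.30 (SE 0.05, adjusted p = 0.000587), whereas MBTPS2, the site-2 protease, differed by -0.32 (SE 0.06, adjusted p = 0.00141). The exons of MBTPS2 share 13.4% of their bases with YY2 and a small RNA gene on the same strand.

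Degradation genes included the second gene that was at least 2-fold lower. HERPUD1, a membrane protein that organises the HRD1 ubiquitin ligase complex, was 2.13-fold lower (log2 -1.09, SE 0.05, 95% interval -1.21 to -0.98, adjusted p = 2.03e-07), the 207th lowest fold change. EDEM1, which helps to mark misfolded glycoproteins by trimming mannose, differed by -0.53 (SE 0.06, adjusted p = 7.70e-05). Its relatives EDEM2 and EDEM3 had values of -0.09 and -0.01 and were not called (adjusted p = 0.257 and 0.903). EDEM1 thus lay apart from its relatives, with an interval of -0.67 to -0.40 that does not meet theirs. SYVN1, the HRD1 ligase itself, was higher by 0.22 (SE 0.06, adjusted p = 0.0132), a call lost at an adjusted p below 0.01. Its exons share 10.1% of their bases with other genes, among them FAU and MRPL49. DERL1, a channel component, was higher by 0.30 (SE 0.05, adjusted p = 0.000448). SEL1L, the partner of HRD1, had a value of -0.09 (adjusted p = 0.135), the lectin OS9, with 13.5% of its exon bases shared, one of -0.02 (adjusted p = 0.702) and DERL2 one of 0.03 (adjusted p = 0.785). Of the 9 degradation genes, 2 were therefore higher and 2 lower (22.2% each, against 24.9% and 25.9% of all genes). The other 5 were not called, and the median was -0.02. The share called, 44.4%, was below the 50.9% of all genes.

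Translocation genes changed little in size. SEC61A1, the pore of the channel, was higher by 0.32 (SE 0.05, adjusted p = 0.000273). SEC61B was higher by 0.23 (SE 0.06, adjusted p = 0.0121), and SSR1, a subunit of the translocon-associated complex, by 0.18 (SE 0.05, adjusted p = 0.00732). SEC61G, the third channel subunit, had a value of 0.05 (adjusted p = 0.528), and SPCS2, of the signal peptidase, one of 0.10 (adjusted p = 0.124). SEC63, which recruits BiP to the channel through a J domain, was the sole translocation gene that was lower, at -0.38 (SE 0.05, adjusted p = 0.000109). In size, none of the 6 reached 1.5-fold in either direction.

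To set these genes beside the rest of the ER, 7 further lists were counted, which take in genes by function, although they were drawn up with earlier results of these data known. Without the PERK branch these lists held 171 measured genes, of which 58 were higher, 24 lower and 89 not called. By direction, 33.9% were higher against 24.9% of all genes, and 14% were lower against 25.9%, with a median of 0.07. In all 48% were called, against 50.9% of all genes, and 0 of the 171 genes were called at 2-fold or more. Among the lists, the count of genes called higher and lower was 4 and 3 of 16 for other oxidative folding (25% and 18.8%), and 3 and 0 of 6 for prolyl isomerases. It was 11 and 5 of 34 for glycosylation and glycan processing (32.4% and 14.7%), and 12 and 4 of 34 for other translocation (35.3% and 11.8%). For other ER degradation it was 12 and 7 of 39 (30.8% and 17.9%), and for exit from the ER and return to it 16 and 5 of 42 (38.1% and 11.9%).

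The largest changes in these lists were modest beside those of the chaperones. In the authors' deposited table PRDX4, a peroxiredoxin that oxidises disulfide isomerases, was higher by 0.74 (SE 0.06), and TXNDC11 by 0.38. ERP29 and TXNDC12, relatives of the disulfide isomerases, were lower by values of -0.33 and -0.21. PPIB, or cyclophilin B, and FKBP2, a second prolyl isomerase, were higher by 0.48 and 0.35. In glycosylation, DAD1, of the oligosaccharyltransferase, and ALG14 were higher by 0.46 and 0.45, ALG14 at a low mean level of 1.80 log2 CPM. MAN1B1, a mannosidase that trims glycans of misfolded proteins, was lower at -0.74, as was SRD5A3, which makes dolichol, at -0.69. In translocation, SRPR, the receptor of the signal recognition particle, and SEC11C, of the signal peptidase, were higher by 0.42 and 0.36. GET4 and CAMLG, of the pathway that inserts tail-anchored proteins, were lower at -0.80 and -0.54, GET4 at a low mean level of 1.75 log2 CPM.

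Among the other degradation genes, VCP, the ATPase that pulls chains out of the membrane, and SGTA were higher by 0.46 and 0.42, while TMEM129 and UBXN8 were lower at -0.41 and -0.34. Of the 3 receptors that return escaped lumenal chaperones to the ER, KDELR3 was higher by 0.51 (SE 0.08, adjusted p = 0.000462), KDELR1 was lower at -0.47 (SE 0.05, adjusted p = 6.52e-05) and KDELR2, at 0.01 (adjusted p = 0.879), was not called. PREB, which loads the coat for ER exit, was higher by 0.42, and MCFD2, a cargo adaptor, was lower at -0.33. Each of these lists therefore held genes called in both directions, except the prolyl isomerases, with 0 lower.

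Most genes listed under the PERK branch stood on the other side from the chaperones. The name is that of the list, and whether PERK itself lay behind these values was not tested. Of the 10 genes listed, 7 were lower (70%, against 25.9% of all genes), 1 higher (10%, against 24.9%) and 2 not called, with a median of -1.47. CHAC1, which degrades glutathione and is a target of ATF4, was 20.8-fold lower (log2 -4.38, SE 0.07, adjusted p = 1.13e-10). NUPR1 differed by -3.80, ATF3 by -3.17, TRIB3 by -3.10 and DDIT3, or CHOP, by -2.07, all called in the authors' deposited table. The mean levels of NUPR1 and DDIT3 were low, at 0.94 and 2.22 log2 CPM. ATF4 itself was 1.84-fold lower (log2 -0.88, SE 0.05, adjusted p = 3.90e-07). At the top of the branch the picture differed: EIF2AK3, the gene of PERK, had a value of -0.06 (adjusted p = 0.591), and EIF2S1, the subunit that PERK phosphorylates, was higher by 0.47 (SE 0.05, adjusted p = 2.67e-05). The phosphatase subunits PPP1R15A and PPP1R15B had values of -0.09 (adjusted p = 0.186) and -0.17 (adjusted p = 0.0261). The group in which 8 of the 11 chaperone genes were called higher was thus the group in which XBP1, HERPUD1, ATF4 and CHAC1 were lower.

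**Figure D3:**
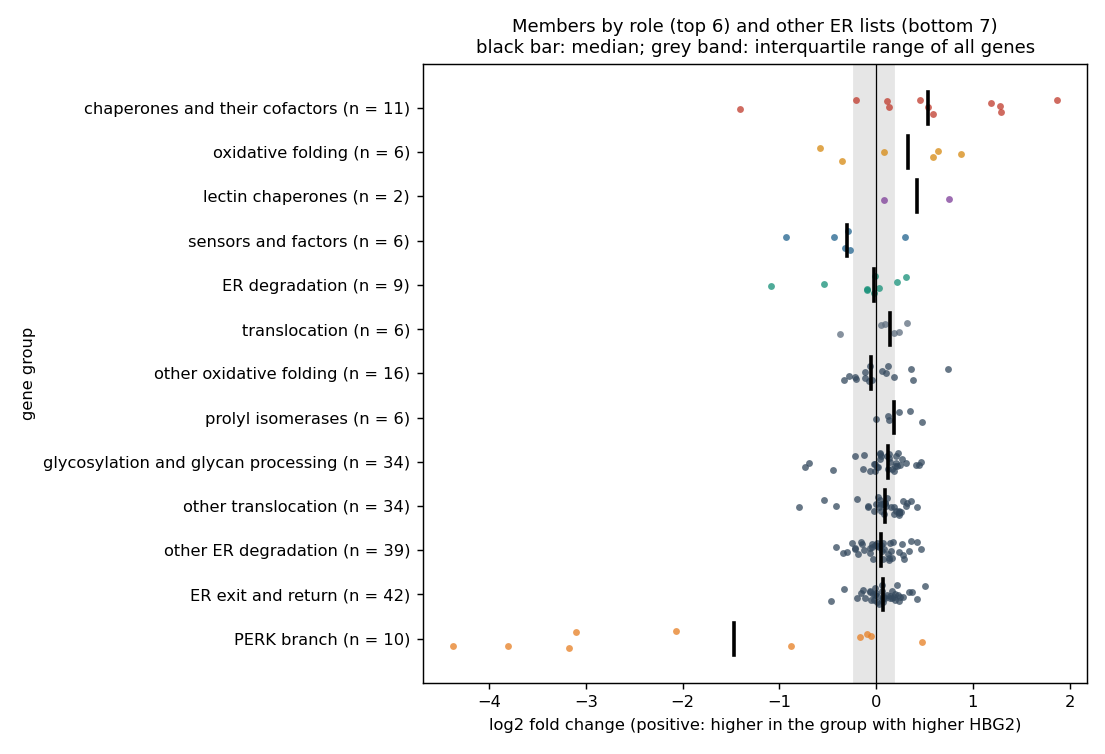
Log2 fold changes (x axis, positive where the group with higher HBG2 is higher) of the 40 ER genes by role and of 7 further ER lists (y axis), 1 point a gene, with the median as a black bar and the interquartile range of all genes as a grey band. The medians of the chaperones (0.53), the lectin chaperones (0.42, 2 genes) and oxidative folding (0.33) lie right of the band. Those of the sensors (-0.30) and the PERK branch (-1.47) lie left of it. The medians of ER degradation, translocation and the remaining 6 further lists lie inside it.

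All matches to the elements, those printed above and that of CRELD2 among them, were then read against the fold changes. The ER stress element was in 8 of the 38 members with a window (21.1%), against 27 of 35116 RefSeq windows (0.0769%) and 15 of 9189 genes of the table (0.163%). These members were HSPA5, HSP90B1 with 2 elements, CALR, CANX, CRELD2, PDIA6, ERO1LB and XBP1. ER stress element II was in 3 members (7.89%), HYOU1 with 2 elements, SDF2L1 and HERPUD1, against 19 of 35116 windows (0.0541%) and 11 of 9189 genes of the table (0.12%). The elements were first defined in promoters of such genes, so their presence is background and not a result of these data. Both strands were searched, and 5 members have more than 1 window. A match is a description of letters and not of binding.

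Of the 11 members with either element, 7 were higher (63.6%, against 24.9% of all genes) and 3 were lower (27.3%, against 25.9%). CANX was not called, and the median of the 11 was 0.58. Of the 27 members whose windows held neither, 9 were higher (33.3%), 8 lower (29.6%) and 10 not called, with a median of 0.03. Genes with an element were thus found at both ends of the range: HSPA5 at 1.87, SDF2L1 at 1.29 and HSP90B1 at 1.19, but also HERPUD1 at -1.09, XBP1 at -0.93 and ERO1LB at -0.58. MANF, at 1.28, and PDIA4, at 0.88, were also higher and had no exact match in this window. HSPA13, the lowest member, also had none. Outside the members, 15 measured genes had either element, and 12 of them were not called, with a median of 0.01. The called ones were ZNF143, higher by 0.50, and EIF2A and NUCB1, at -0.27 and -0.14. Members that hold the exact letters of an element were therefore called in both directions, more often higher (7) than lower (3). Outside the members 12 of the 15 genes were not called, so no direction is read there. The difference from members with neither element was not tested.

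**Figure D4:**
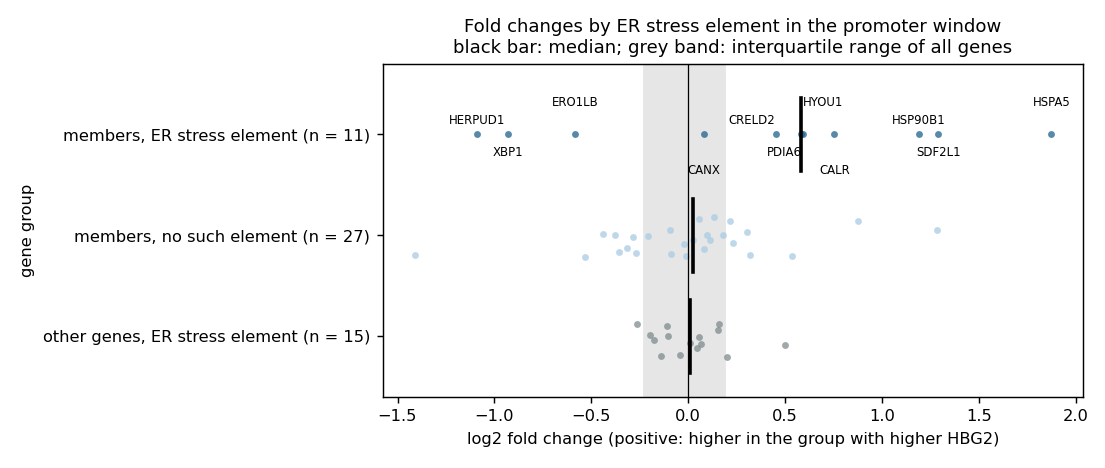
Log2 fold changes (x axis, positive where the group with higher HBG2 is higher) of members with either ER stress element in their promoter window, members with neither, and other measured genes with either, 1 point a gene, with the median as a black bar and the interquartile range of all genes as a grey band. Named members with an element spread from -1.09 (HERPUD1) to 1.87 (HSPA5), while the 15 other genes except ZNF143 lie between -0.27 and 0.20.

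HSPA5 and HERPUD1, the highest and the lowest of the members with an element, are shown with their whole windows, 5′ to 3′ in the direction of the gene. In HSPA5 the capitals mark the ER stress element, which starts 66 bases before the start site. In HERPUD1 they mark, in order, the fixed letters of an ATF4 composite site read on the opposite strand, which begins 176 bases before the start site, and ER stress element II, which begins 117 bases before it.

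HSPA5, chr9:125241294-125241593, minus strand: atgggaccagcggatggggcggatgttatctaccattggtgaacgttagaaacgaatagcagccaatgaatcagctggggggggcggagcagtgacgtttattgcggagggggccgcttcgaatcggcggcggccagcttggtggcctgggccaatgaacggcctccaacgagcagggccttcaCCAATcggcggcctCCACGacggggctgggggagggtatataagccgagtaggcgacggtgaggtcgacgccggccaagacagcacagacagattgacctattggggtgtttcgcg
HERPUD1, chr16:56931892-56932191, plus strand: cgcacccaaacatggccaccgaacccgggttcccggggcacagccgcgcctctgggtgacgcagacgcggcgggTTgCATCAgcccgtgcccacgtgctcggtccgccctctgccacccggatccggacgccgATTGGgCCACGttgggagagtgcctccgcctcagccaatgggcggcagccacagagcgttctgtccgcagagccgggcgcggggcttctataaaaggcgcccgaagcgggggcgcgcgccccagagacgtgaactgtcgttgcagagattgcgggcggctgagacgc

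Of the 38 members HERPUD1 alone had a match to the ATF4 composite site (2.63%, against 3.62% of all windows and 2.49% of the genes of the table). Over the table, 228 other genes had such a match, with 42 called higher (18.4%, against 24.9% of all genes), 86 called lower (37.7%, against 25.9%) and a median of -0.07. The core that XBP1 and ATF6 share, TGACGTG, was in 3 members (7.89%, against 1.97% of windows and 3.45% of the genes of the table): HYOU1, SEC61A1 and DNAJC10, with log2 fold changes of 0.59, 0.32 and 0.11. In HYOU1 this core overlaps the element that lies 185 bases before the start. The ETS core CCGGAAG, the kind of site that ERF and its relatives read, was in 7 members (18.4%), against 10.3% of all windows and 24.3% of the genes of the table. Of these 7 members 2 were higher (PDIA6 and SYVN1), 2 lower (ERN1 and ATF6B) and 3 not called (DNAJB9, EDEM2 and EDEM3), with a median of -0.09. The shares higher and lower were 28.6% each, near the 24.9% and 25.9% of all genes. Among the 2222 other measured genes with this core they were 28.9% and 21.1%. The members with the largest changes, HSPA5, HSP90B1, SDF2L1, MANF, HSPA13 and HERPUD1, had no match to this core in the window.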

How the data were processed

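RNA from 5 HUDEP-2 libraries was compared by the authors as wild type and mutant. Per the labels' protocols, total RNA was extracted with Trizol and made into Illumina TruSeq libraries. The submitters' processing notes list edgeR 2.6.12, HTSeq, TopHat2 2.0.4, Cuffdiff and SAMtools with hg19/GRCh37, without roles. The filter, the normalization and the use of strand, not given in the sources used here, could change low and overlapping genes. For each gene the table deposited by the authors holds, per the file headers, the log2 fold change, the mean log2 CPM, the F score of the quasi-likelihood test, and the p-value before and after adjustment. Of its 11979 rows, 3 name no gene (21.5% of CPM, with ambiguous reads at 8.17%) and were left out here. The table has 0 unmapped columns of values per sample.

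Deposited log2 fold changes were multiplied by -1 so that HBG2 is positive. The SE is the size of the log2 fold change over the root of F, with t intervals on 10.34 degrees of freedom, as F and p imply. The scripts were tested on simulated data. The members and lists were chosen with earlier results of these data known, so lists carry counts and medians and no test. Every member may be named. Of each further ER list the named genes are up to 2 called genes with the largest increase and up to 2 with the largest decrease, and all PERK branch genes. The genes outside the members that hold an ER stress element and were called, KDELR2 and the markers were named after their values were seen. Promoter windows are from RefSeq (GRCh38.p14), matched by gene ID, and exon overlaps from GENCODE 29 (GRCh38), which is not the authors' annotation. A planned description by C-terminal retrieval signal was not made, as no protein sequences were used here. Python 3.11.15, pandas 2.3.3, numpy 2.4.6, scipy 1.17.1 and matplotlib 3.10.9 were used.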

Additional observations from a re-analysis of the deposited data

How the results depend on the processing

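No paired analysis was possible because the authors' deposited table holds no values per sample, and for the same reason no library could be left out in turn. Depth per library is unknown, so what low counts limit cannot be stated. Removing the 3 rows that name no gene left 18 members higher and 11 lower. At an adjusted p below 0.01 there were 14 and 10, among genes of at least 5 log2 CPM 15 and 8, and after centring on the median of those genes (0.03) 17 and 12. Requiring a 1.5-fold change gave 8 members higher and 3 lower, and Bonferroni adjustment 10 and 3. Over all genes the counts were 2987 higher and 3105 lower, and 2093 and 2206 at an adjusted p below 0.01. Among all genes of at least 5 log2 CPM they were 1689 and 1296. They were 2566 and 3532 after centring, 461 and 885 with the 1.5-fold change, and 314 and 464 with Bonferroni. For the 171 other ER genes, 58 higher and 24 lower became 1 and 3 with the 1.5-fold change and 4 and 2 with Bonferroni, and the number higher became 38 at an adjusted p below 0.01. The member median of 0.09 became 0.11 among genes of at least 5 log2 CPM and 0.06 after centring. None of the called members changed sign under these settings. DNAJC3 lost its call and SEL1L gained one after centring. DERL2, not called, moved from 0.03 to -0.0081. The share of members with the ER stress element was 21.1%, and 15.8% in the 200 bases before the start or 13.2% on the forward strand alone. The low-expression and centring settings for members with a C-terminal retrieval signal were not run.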
